A study of Saccharomyces cerevisiae with 227 samples.

Results

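The samples described here were taken from wild-type *Saccharomyces cerevisiae* growing in glucose medium under nitrogen for 4, 5 and 6 generations, and they were set against samples of the same series taken at 3 generations. They were chosen by their labels alone. Each of these time points has 3 arrays, so 9 arrays were compared with 3, out of 227 arrays in all and 41 in the glucose nitrogen series, which runs over 14 time points between 0 and 6 generations. All 5609 ORFs with deposited values were tested.

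The cells are strain JM43, an auxotroph for leucine, histidine, tryptophan and uracil that carries mitochondrial DNA, grown as sparged fermentor batch cultures. Growth was aerobic until time zero, when the sparge gas was switched to oxygen-free nitrogen. In the methods, which describe the antimycin A series, this gas also held a small share of carbon dioxide. The glucose medium is labelled with the suffix TEA, which in the methods stands, for the galactose medium, for Tween (a source of unsaturated fatty acid), ergosterol and antifoam. The galactose nitrogen series, used for comparison at 6 and 3 generations, had wild-type cells under the same gas, with 3 arrays at each of these time points. On each two-color array of 70-mer probes, Cy3-labelled cDNA of a sample was hybridized with Cy5-labelled cDNA of a reference. Values are log2 ratios of sample over reference, so a value says nothing of absolute abundance and values are compared only between samples of 1 gene. The methods describe, for the antimycin A series, paired batch runs that each gave every other time point, repeated in triplicate. The labels do not say whether this holds for the glucose series, so neighbouring time points may come from different runs, and p-values measure the spread between these arrays, which may be technical. In a culture, fewer cells with a transcript and less transcript per cell cannot be told apart.

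Baker's yeast grows without oxygen by fermentation, but heme, sterols and unsaturated fatty acids cannot be made. When heme and sterol fall, the repressor Rox1 is lost and the sterol-sensing activator Upc2 becomes active, and hypoxic isoforms, sterol importers and cell wall mannoproteins of the DAN, TIR and PAU families are induced. Glucose represses genes for other sugars and for respiration throughout. Purine nucleotides are made by the ADE pathway, whose genes are regulated together with those that supply one-carbon units and glycine, and are switched off when adenine is taken up.

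Genes known to respond to oxygen were used to check the labels. Against 0 generations, 1013 of 5598 genes (18.1%) differed at 3 generations, and the numbers at 4, 5 and 6 generations were 1030 (18.4%), 1008 (18.0%) and 923 (16.5%) (limma, Holm-adjusted p of 0.01 or less). Of the 10 genes chosen to check the labels, all differed from 0 generations at each of these time points, the 6 hypoxic genes upward and the 4 aerobic genes downward. The direction of the deposited ratios was itself settled from such genes. DAN1, a cell wall mannoprotein, was higher by 5.71 at 3 generations and by 5.63 at 6 generations on the log2 scale. AAC3, the hypoxic ADP/ATP carrier, was higher by 4.91 at 6 generations. CYC1, aerobic cytochrome c, had changed by −5.44 at 3 generations and by −4.81 at 6 generations. Array medians lay between 0.03 and 0.08 at 3 to 6 generations, and at most 18 genes lacked a value. The SD of the ratios over genes was 0.58, 0.63 and 0.58 on the arrays at 3 generations. It was narrower at 6 generations, at 0.53, 0.53 and 0.56. Whether this narrowing contributes to the changes was not tested. Quantile normalization, whose results are given below, makes the spread of the arrays equal. The array of 5 generations replicate 1 stood apart from the others: its correlation across genes with other arrays of 3 to 6 generations was 0.723 to 0.831, where the highest between 2 arrays was 0.951. Without it, 9 genes were called at 5 generations in place of 17, all among the 17.

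Few genes passed the threshold after 3 generations. At 4 against 3 generations 1 of 5609 genes (0.0178%) passed the threshold, 17 genes (0.303%) passed at 5 generations and 51 (0.909%) at 6 generations. The preceding interval had far more, with 586 genes (10.5%) passing at 3 against 2 generations. Across genes, the mean profile at 3 generations correlated with that at 4, 5 and 6 generations with r of 0.967, 0.924 and 0.903, and with that at 2 generations with r of 0.476. These correlations are over genes of samples that share a reference. The SD of the log2 change over genes was 0.15 at 4, 0.22 at 5 and 0.25 at 6 generations, and 95.4% of genes lay within 0.5 of no change at 6 generations. At an unadjusted p under 0.05, 341, 998 and 1021 genes passed at 4, 5 and 6 generations. In simulated data 8 of 50 log2 changes of 0.5 and 40 of 50 changes of 1 were called at 6 against 3 generations. The low counts therefore do not show that other genes were unchanged.

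The genes that did pass were mostly lower. At 6 generations, 44 genes (0.784%) fell and 7 (0.125%) rose. At 5 generations, 14 fell (0.250%) and 3 rose (0.0535%), and at 4 generations the single call was a fall. Of the 17 genes called at 5 generations, 13 were called at 6 generations as well. A slope over 3 to 6 generations, fitted with 1 mean per time point, passed for 69 genes (1.23%), of which 61 (1.09%) sloped down and 8 (0.143%) up. Of these 69, 53 were also called at 4, 5 or 6 generations. In all 51 genes called at 6 generations, the 3 arrays of 6 generations lay outside the range of the 3 arrays at 3 generations, which was so for 24.0% of all genes. Calls were chosen for large differences on these same arrays, so this separation is no separate support for them. With Benjamini-Hochberg adjustment at the same threshold 159 genes (2.83%) were called at 6 generations, 35 (0.624%) higher and 124 (2.21%) lower. With quantile normalization 18 genes were called at 6 generations, 5 higher and 13 lower, and the slope was called for 7 genes upward and 18 downward. Leaving out replicate 1, 2 or 3 of every time point left 29, 19 and 13 genes at 6 generations, 8, 2 and 3 at 5 generations, and 40, 25 and 19 for the slope.

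**Figure D1:**
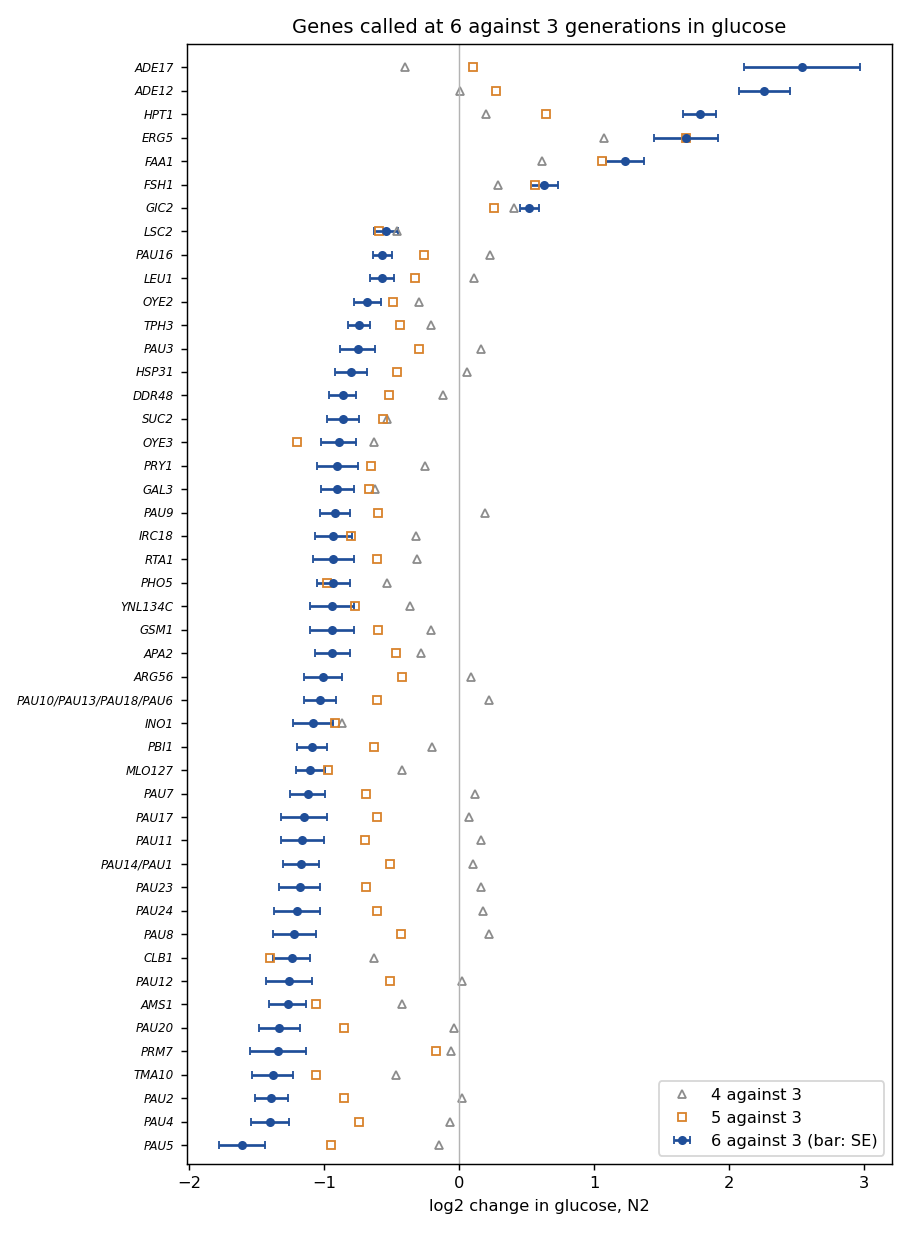
Log2 change of the genes called at 6 against 3 generations in glucose under nitrogen, with 1 row per set of ORFs that share identical values, where filled circles show 6 against 3 generations with the standard error, open squares 5 against 3 and open triangles 4 against 3. The 7 genes that rose lie right of zero, with ADE17 at 2.54, and the genes that fell reach −1.61 at PAU5.

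The largest block of falling genes was the seripauperin (PAU) family, small serine-poor proteins related to the cell wall mannoproteins and encoded mostly near chromosome ends. Of the 44 genes that fell at 6 generations, 20 were PAU genes, out of 24 measured, against a background of 0.784% of all genes lower. The median change of the family was 0.11 at 4, −0.61 at 5 and −1.14 at 6 generations, where the median of all genes was 0.00, 0.01 and 0.01. On single arrays the median ratio of the family was 2.63, 2.90 and 2.45 at 3 generations, 2.73, 2.92 and 2.71 at 4, 1.80, 2.39 and 2.12 at 5, and 1.47, 1.61 and 1.44 at 6 generations. The arrays at 4 generations overlapped those at 3, and those at 5 and at 6 generations lay below both. PAU genes are nearly identical in sequence, and some of them carry the same deposited value. The 24 ORFs hold 19 distinct profiles, of which 16 were called at 6 generations. PAU6, PAU10, PAU13 and PAU18 share 1 profile, as do PAU1 and PAU14, and PAU21 and PAU22. Cross-hybridization among the rest was not tested.

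PAU5 fell most. Its log2 ratios were 1.91, 1.95 and 1.71 at 3 generations, 1.86, 1.76 and 1.50 at 4, 0.73, 1.11 and 0.88 at 5, and 0.30, 0.39 and 0.04 at 6 generations. The arrays at 4 generations overlapped those at 3, and those at 5 and 6 generations lay below both, without overlap between 5 and 6. The change at 6 against 3 generations was −1.61 ± 0.17 (SE), a 3.06-fold difference with a Holm-adjusted p of 2.9e-07 in limma.

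PAU2 followed the same course with 2.25, 2.16 and 1.94 at 3 generations, 2.20, 2.12 and 2.09 at 4, 1.03, 1.37 and 1.39 at 5, and 0.64, 0.65 and 0.89 at 6 generations. It was the only PAU gene called at 5 generations, at −0.85 (limma, adjusted p = 3.2e-04), and without replicate 1 of 5 generations it was at −0.74 with an adjusted p of 0.0156. PAU4 stood at 0.55, 0.59 and 0.47 at 6 generations, against 2.12, 1.98 and 1.72 at 3 generations, a change of −1.40 ± 0.14 (SE). PAU20 changed by −1.33 ± 0.15 (SE). All 4 were above their levels in air, where PAU5 averaged −2.65 and PAU2 averaged −1.18, so the levels at 6 generations lay between those in air and at 3 generations.

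Members that also belong to the DAN family fell too. PAU23, which is also known as DAN3, was at 1.88, 1.99 and 2.09 at 6 generations, against 3.27, 3.25 and 2.98 at 3 generations, and its change was −1.18 (limma, adjusted p = 2.5e-05). PAU24, also known as DAN2, changed by −1.20 with an adjusted p of 5.0e-04. The members that were not called at 6 generations were PAU19, PAU15 and the pair PAU21 and PAU22, with changes of −0.89, −0.63 and −0.52 and adjusted p of 0.0340, 1.00 and 0.0191. All 24 ORFs had every array of 6 generations below every array of 3 generations, which held for 672 of the 5609 genes tested. The count of calls depended on the processing: with quantile normalization the family median was −0.39 and 1 member was called, and with only the arrays of 3 to 6 generations in the fit 6 members were called. Without replicate 1, 2 or 3 of every time point 13, 12 and 7 members were called, with medians of −1.09, −1.01 and −1.15.

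Of the 8 genes on the list of DAN and TIR mannoproteins, PAU23 and PAU24 were the only ones called at 6 generations, where 0.784% of all genes were called lower. All 8 had a negative change, with a median of −0.29. DAN1 stood at 2.17, 2.15 and 2.17 at 6 generations, against 2.30, 2.26 and 2.17 at 3 generations, a difference of −0.08 (limma, adjusted p = 1.00). TIR1 was at 1.67, 1.62 and 1.67 at 6 generations, against 1.91, 2.27 and 1.53 at 3 generations, and the groups overlapped. TIR2, TIR3 and TIR4 differed by −0.09, −0.21 and −0.32. DAN4 was at 2.39, 2.59 and 2.46 at 6 generations, against 3.19, 3.32 and 3.14 at 3 generations, and missed the threshold with an adjusted p of 0.0199. Whether the PAU genes and the DAN and TIR genes differ in their change was not tested.

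**Figure D2:**
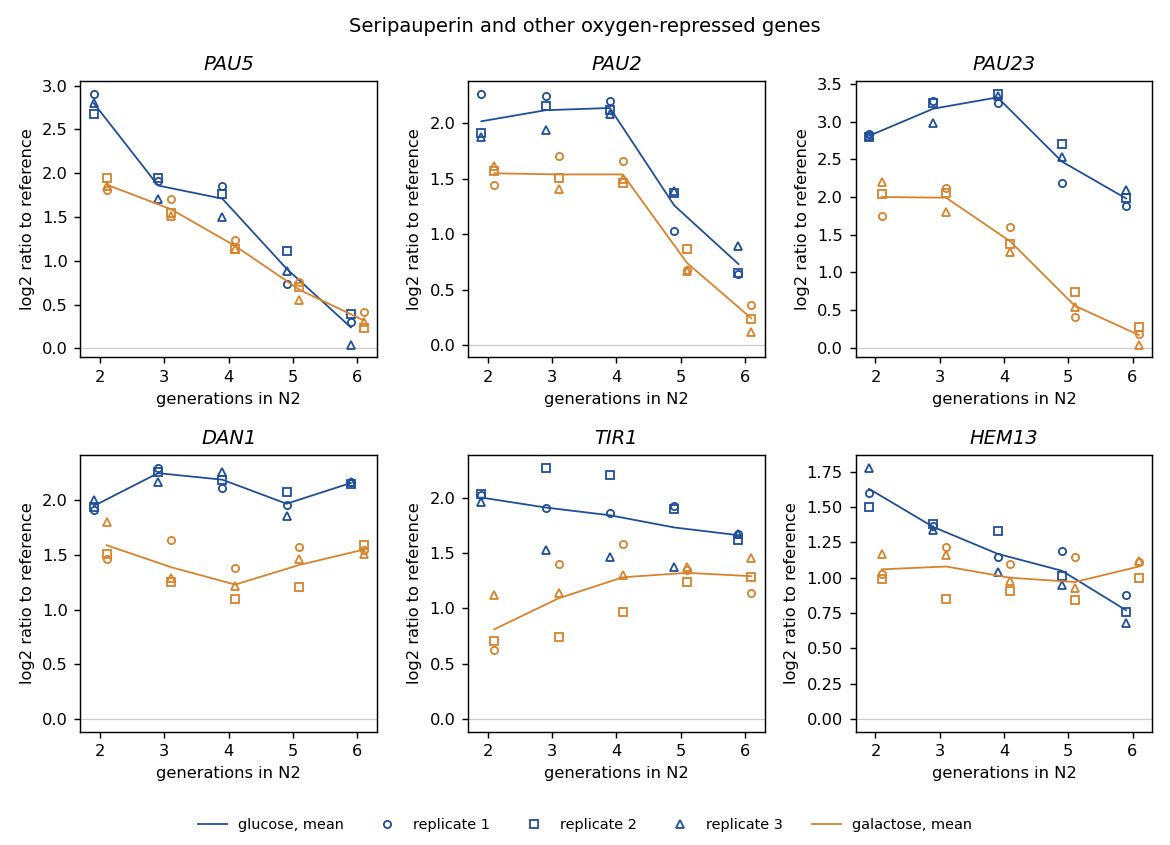
Log2 ratios on each array (symbols) and means (lines) of 3 PAU genes, 2 other mannoprotein genes and HEM13 at 2 to 6 generations under nitrogen, in glucose (blue) and galactose (orange), shifted slightly sideways for legibility and comparable only within a medium. In glucose PAU5, PAU2 and PAU23 are lower at 5 and 6 generations than at 3, with the arrays of 3 and 4 overlapping, and DAN1 stays between 1.86 and 2.30 from 3 to 6 generations.

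Hypoxic isoforms and heme-related genes showed no change that passed the Holm threshold. None of the 12 genes on this list, which also holds the repressor gene ROX1, was called at 4, 5 or 6 generations, and their median change at 6 generations was −0.01. Their changes ran from −0.59 to 1.83, with 6 above and 6 below zero. The list is mixed, since at 3 against 0 generations OLE1 differed by −4.46 and CPR1 by −0.06. With Benjamini-Hochberg adjustment 2 of the 12 were called higher at 6 generations, against 0.624% of all genes. ANB1, the hypoxic form of translation factor eIF5A, was at 1.74, 1.73 and 1.65 at 6 generations, against 1.91, 1.81 and 1.70 at 3 generations. AAC3 had 2.68, 2.85 and 2.63 at 6 generations, against 2.31, 2.13 and 2.12 at 3 generations, which missed the threshold with an adjusted p of 0.160. HEM13, the oxygen-dependent coproporphyrinogen oxidase of heme synthesis, had 0.88, 0.76 and 0.68 at 6 generations, against 1.37, 1.38 and 1.34 at 3 generations, with an adjusted p of 1.00 in limma. COX5B, the hypoxic subunit of cytochrome c oxidase, was at −0.36, −0.16 and −0.31 at 6 generations, against 0.05, 0.07 and −0.12 at 3 generations. In AAC3, HEM13 and COX5B the arrays of 6 and 3 generations did not overlap, as in 24.0% of all genes. Missing the threshold therefore does not show that these genes were unchanged.

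The transcript of the repressor itself, ROX1, had −3.43, −3.10 and −3.18 at 3 generations, −1.96, −2.49 and −1.94 at 4, −0.67, −1.71 and −2.10 at 5, and −1.40, −1.27 and −1.53 at 6 generations. The arrays of the 3 later time points were all above those at 3 generations. The difference of 1.83 ± 0.38 (SE) at 6 generations did not pass the threshold, with an adjusted p of 0.200. The aerobic genes CYC1, HMG1 and COX5A differed by 0.64, 0.46 and 0.27 at 6 generations and were not called. On the array of 5 generations that stood apart these genes had the highest ratio of that time point: CYC1 was at −1.93 there and at −3.52 and −3.54 on the other 2 arrays, and COX5A was at −1.35 there and at −2.12 and −2.20 on the others.

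Among the genes that passed at 6 generations, the 3 largest increases were in purine genes. ADE17, ADE12 and HPT1 were the only genes of the 22 on the purine list to pass, against a background of 0.125% of all genes higher. The list median was 0.05 at 4, 0.18 at 5 and 0.72 at 6 generations. ADE17 encodes the enzyme of the last steps of inosine monophosphate synthesis. Its log2 ratios were −4.65, −5.11 and −4.33 at 3 generations, −5.16, −5.03 and −5.09 at 4, −3.74, −5.06 and −4.98 at 5, and −1.77, −2.01 and −2.67 at 6 generations. The change of 2.54 ± 0.43 (SE), or 5.81-fold, had an adjusted p of 0.00992 in limma, just inside the threshold. It was outside it when array medians were subtracted (0.0106), and when only the arrays of 3 to 6 generations were fitted (0.0158), and without replicate 2 or 3 of every time point its adjusted p was 1.00 and 0.436.

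ADE12, adenylosuccinate synthase on the branch to AMP, was at −0.15, −0.47 and −0.66 at 6 generations, against −2.55, −2.72 and −2.78 at 3 generations. It rose by 2.26 ± 0.19 (SE), or 4.78-fold (limma, adjusted p = 1.9e-09). At 4 and 5 generations its difference was 0.01 and 0.27. HPT1, which salvages hypoxanthine and guanine, was at −0.39, −0.52 and −0.28 at 6 generations, against −2.05, −2.21 and −2.26 at 3 generations, a rise of 1.78 ± 0.12 (SE) with an adjusted p of 1.8e-11. At 5 generations HPT1 stood at −1.37, −1.73 and −1.50, above every array of 3 generations, with an adjusted p of 0.0874.

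These genes had been close to their aerobic level at 2 generations. ADE17 averaged −0.51 at 2 and 0.01 at 0 generations, and ADE12 averaged −0.44 and 0.00. With the mean of 2 and 3 generations in place of 3, the ADE17 difference was accordingly 0.45 with an adjusted p of 1.00. The median of the purine list at 6 generations was then 0.01 in place of 0.72, and ADE12 and HPT1 were still called. Against 3 generations alone, the other genes of the list did not pass. ADE4, which catalyses the committed step, was at −1.25, −1.48 and −1.81 at 6 generations, against −2.29, −2.18 and −2.34 at 3 generations. ADE13, adenylosuccinate lyase, had −1.28, −1.59 and −1.64 at 6 generations, against −2.29, −2.53 and −2.41 at 3 generations. SHM2, the cytosolic serine hydroxymethyltransferase, had −1.83, −1.82 and −2.41 at 6 generations, against −3.42, −3.38 and −3.28 at 3 generations. In all 3 genes the groups did not overlap.

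In 15 of the 22 genes every array of 6 generations was above every array of 3 generations, which held for 675 of the 5609 genes tested, and in 3 it was below. These 3 were IMD2, IMD3 and IMD4, for IMP dehydrogenase of the branch to GTP. IMD2 stood out in size, with −0.72, −0.51 and −0.31 at 6 generations, against 0.50, 0.47 and 0.48 at 3 generations, and did not pass (adjusted p = 1.00 in limma). IMD3 and IMD4 differed by −0.28 and −0.48. The spread used in the test came from all 41 arrays, and with only the arrays of 3 to 6 generations the genes called were ADE12, HPT1 and SHM2 upward and IMD2 downward.

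**Figure D3:**
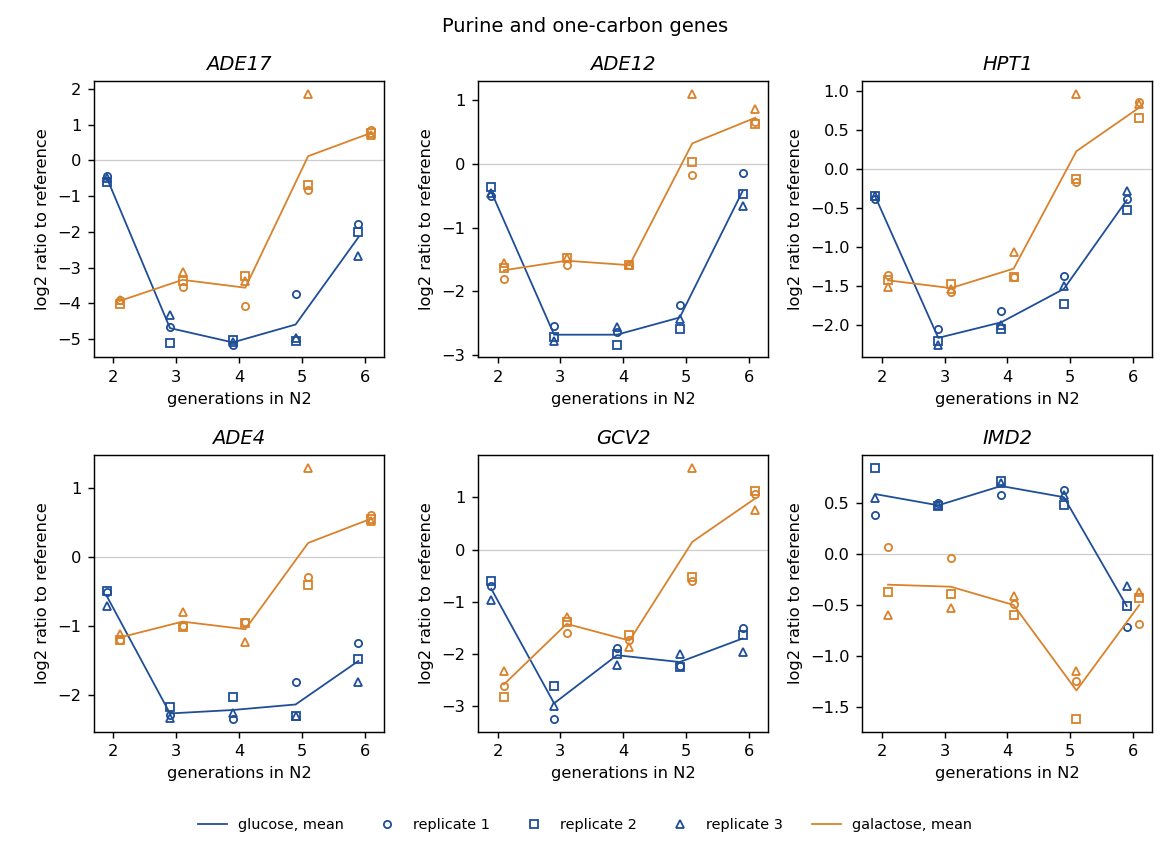
Log2 ratios on each array (symbols) and means (lines) of purine and one-carbon genes at 2 to 6 generations under nitrogen, in glucose (blue) and galactose (orange), shifted slightly sideways for legibility. In glucose ADE17, ADE12 and HPT1 are lowest from 3 to 5 generations, with ADE12 between −2.84 and −2.21, and are higher at 6, and IMD2 is lower at 6 generations.

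Of the other genes that rose, 2 belong to lipid metabolism. ERG5, the C-22 desaturase of ergosterol synthesis and a heme enzyme that uses oxygen, was at −1.70, −1.80 and −1.73 at 3 generations, −0.53, −1.00 and −0.50 at 4, 0.38, −0.13 and −0.45 at 5, and −0.13, 0.16 and −0.22 at 6 generations. All later arrays were above those of 3 generations. It rose by 1.68 ± 0.24 (SE) at 5 generations and by as much at 6 generations, with adjusted p of 3.9e-04 and 3.7e-04 in limma, and at 5 generations without replicate 1 it was at 1.46 with an adjusted p of 0.0183. ERG5 was the only one of 25 sterol synthesis genes to pass. ERG5 averaged 0.51 at 2 generations, so it was lower at 3 generations than at 2, 4, 5 and 6.

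FAA1, a long-chain acyl-CoA synthetase that activates imported fatty acids, had −0.31, −0.63 and −0.41 at 3 generations, 0.36, 0.05 and 0.07 at 4, 0.80, 0.55 and 0.45 at 5, and 0.71, 0.88 and 0.74 at 6 generations. It rose by 1.23 ± 0.14 (SE) at 6 generations (limma, adjusted p = 5.4e-06). FSH1, a serine hydrolase, rose by 0.63, and stood at 0.82, 1.00 and 0.94 at 6 generations, against 0.41, 0.19 and 0.25 at 3 generations. Named to complete the 7 genes that rose, GIC2, an effector of the GTPase Cdc42, rose by 0.52 with 0.33, 0.29 and 0.39 at 6 generations, against −0.17, −0.11 and −0.27 at 3 generations.

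INO1 was the single gene called at 4 generations and the only one called at all 3 time points. It encodes inositol-3-phosphate synthase, the first enzyme of inositol synthesis. Its ratios were 1.49, 1.63 and 1.51 at 3 generations, 0.54, 0.91 and 0.57 at 4, 0.59, 0.91 and 0.37 at 5, and 0.39, 0.65 and 0.36 at 6 generations. The difference was already there at 4 generations, at −0.87 ± 0.15 (SE) with an adjusted p of 0.00692, and was −1.08 at 6 generations with an adjusted p of 1.4e-04 in limma. With the replicate number as a block the adjusted p at 4 generations was 0.0109, so no gene was called there, and without replicate 1 of 5 generations that time point's adjusted p was 0.0322. The call of INO1 at 4 generations was also lost with only the compared arrays (adjusted p of 0.178) and without moderation (0.0196). It was lost as well with quantile normalization, where the change was −0.59, and without replicate 1 (0.439), 2 (0.380) or 3 of every time point. INO1 had averaged 3.13 at 2 generations. Of the 15 genes on the phospholipid and inositol list it was the only one called.

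CLB1, a B-type cyclin of mitosis, had 0.03, 0.13 and 0.07 at 3 generations, −0.58, −0.62 and −0.48 at 4, −1.32, −1.42 and −1.23 at 5, and −1.16, −1.34 and −0.99 at 6 generations. The groups did not overlap with 3 generations at any later time. The fall was −1.40 ± 0.14 (SE) at 5 generations and −1.24 at 6 generations (limma, adjusted p = 8.6e-08 and 1.6e-06). It was the only one of 23 genes of G2/M and mitotic exit to pass, and the list median was 0.04 at 6 generations. OYE3, an NADPH oxidoreductase of the old yellow enzyme kind, fell by 1.20 at 5 generations and by 0.89 at 6 generations. It stood at −2.64, −2.60 and −2.35 at 5 generations, against −1.51, −1.12 and −1.37 at 3 generations. Its relative OYE2 changed by −0.68 at 6 generations, where it was at 0.54, 0.40 and 0.70, against 1.11, 1.34 and 1.23 at 3 generations.

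TMA10, a ribosome-associated protein, had 0.44, 0.65 and 0.67 at 3 generations, 0.32, −0.18 and 0.19 at 4, −0.60, −0.46 and −0.37 at 5, and −0.67, −0.95 and −0.76 at 6 generations, a change of −1.38 ± 0.15 (SE) at 6 (limma, adjusted p = 1.7e-06). AMS1, the vacuolar alpha-mannosidase, fell by 1.27 at 6 generations, where it was at −0.07, 0.01 and 0.19, against 1.36, 1.22 and 1.37 at 3 generations. PHO5, the secreted acid phosphatase, fell by 0.98 at 5 generations, where it was at −0.54, −0.46 and −0.49, against 0.38, 0.49 and 0.58 at 3 generations. Among 20 genes of the phosphate regulon PHO5 was the only one called at 4, 5 or 6 generations, and PHM8 passed the slope test beside it, with −0.34 per generation (limma, adjusted p = 8.2e-04). STF2 was called at 5 generations, at −1.02 (limma, adjusted p = 2.1e-04), but was at −0.76 with an adjusted p of 0.0342 at 6 generations.

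PRM7, a pheromone-regulated membrane protein, differed from these genes in its course. It had 1.77, 2.37 and 1.94 at 3 generations and 1.74, 2.23 and 1.60 at 5 generations, and was lower at 6 generations alone, with 0.43, 0.99 and 0.63. Its change of −1.34 had an adjusted p of 0.00280 in limma, and with quantile normalization it was −0.79 with an adjusted p of 1.00. At 2 generations PRM7 averaged −1.32, lower than at 3 generations.

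**Figure D4:**
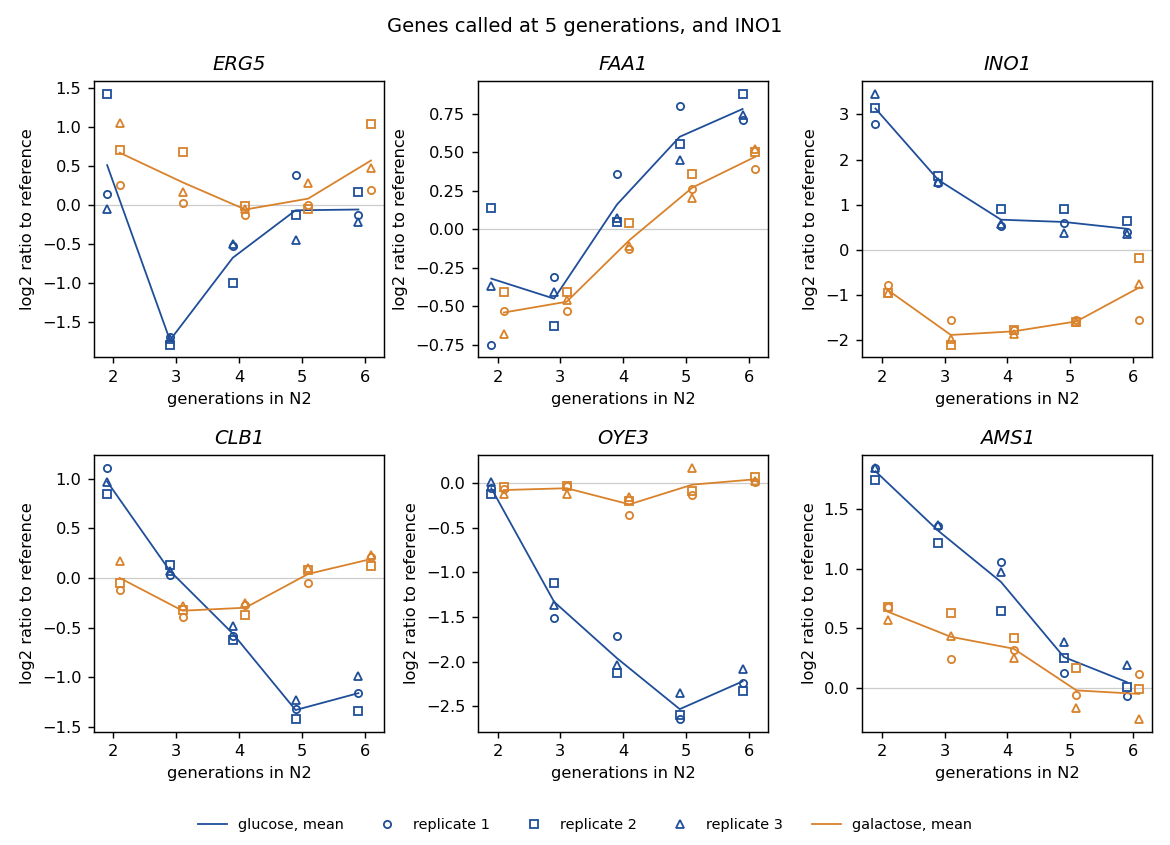
Log2 ratios on each array (symbols) and means (lines) of ERG5, FAA1, INO1, CLB1, OYE3 and AMS1 at 2 to 6 generations under nitrogen, in glucose (blue) and galactose (orange), shifted slightly sideways for legibility. In glucose ERG5 and FAA1 are higher after 3 generations, CLB1, OYE3 and AMS1 are lower, and INO1 is between 0.54 and 0.91 at 4 generations.

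A few glucose-repressed and biosynthetic genes fell at 6 generations within lists whose other members did not pass at that time. GAL3, the galactose sensor of the GAL switch, was at −0.80, −0.39 and −0.66 at 6 generations, against 0.34, 0.28 and 0.23 at 3 generations. SUC2, invertase, was at −0.92, −0.61 and −0.67 at 6 generations, against 0.03, 0.16 and 0.17 at 3 generations. These 2 genes were the only ones called among 19 genes for the use of other sugars, where 0.784% of all genes were called lower, and the list median was −0.21. Of 57 amino acid biosynthesis genes under the activator Gcn4, ARG56 of arginine synthesis and LEU1 of leucine synthesis fell at 6 generations, by 1.01 and 0.57, against the same background, and the list median was −0.15. ARG8 of arginine synthesis passed the slope test as well, with −0.19 per generation. ARG56 was at −0.11, 0.27 and 0.32 at 6 generations, against 1.01, 1.40 and 1.10 at 3 generations. LSC2, a subunit of the TCA cycle enzyme succinyl-CoA ligase, was the only one of 16 TCA cycle genes to pass, at −0.54.

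Lists of growth and stress genes held few calls. None of 126 ribosome biogenesis genes was called, and their median change was 0.12 at 4, 0.24 at 5 and 0.20 at 6 generations, where the median of all genes was at most 0.01. In 120 of the 126 genes the difference at 6 generations was above zero, as it was in 2960 of all 5609 genes. On single arrays the list median was 0.21, 0.13 and 0.20 at 3 generations, 0.30, 0.24 and 0.31 at 4, 0.41, 0.34 and 0.41 at 5, and 0.39, 0.28 and 0.39 at 6 generations, so that the arrays of each later time point lay above those of 3 generations. Of 137 cytosolic ribosomal proteins none was called, with a median of 0.06 at 6 generations. Among 38 genes of the general stress response driven by Msn2 and Msn4, DDR48, a DNA damage-responsive protein, fell by 0.86 at 6 generations and no other was called there, and the list median was −0.11. TFS1 and PRX1 of this list also passed the slope test, with −0.22 and −0.23 per generation. The glyoxalase HSP31 fell by 0.80 and was the only call among 32 heat shock and chaperone genes, with −1.13, −1.22 and −1.31 at 6 generations, against −0.59, −0.17 and −0.50 at 3 generations. None of 24 trehalose and glycogen genes was called, with a median of −0.21. None of 38 respiratory chain and ATP synthase genes, 14 glyoxylate and gluconeogenesis genes or 28 glycolysis and fermentation genes was called at any of the 3 time points.

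The change over 3 to 6 generations was also compared with that in galactose in a joint fit, in which the reference of each series cancels. Each medium has its own series of cultures, so a difference due to the sugar and one between the series cannot be told apart. In galactose 187 of 5609 genes (3.33%) differed between 6 and 3 generations, 38 higher and 149 lower. The change differed between the media for 52 genes (0.927%), of which 30 (0.535%) had a higher change in glucose than in galactose and 22 (0.392%) a lower one. With quantile normalization the numbers were 51 and 22, and without replicate 1, 2 or 3 of every time point 31, 13 and 20 genes were called in all. Of the 44 genes that fell in glucose, 35 also had a negative change in galactose and 27 were called there, out of 149 that fell in galactose. The 20 PAU genes among the 44, some with shared profiles, were all called lower in galactose and make up most of the 27. The median change of all genes in galactose was 0.02. The 7 that rose had a positive change in galactose and 4 were called there, out of 38. For 6 of the 44 and none of the 7 the change differed between the media.

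The PAU genes, except PAU21 and PAU22 at 0.09 in galactose, had negative changes in both media. The PAU family had a median change of −1.14 in glucose and −1.38 in galactose, and none of the 24 differed between the media at the threshold. The median difference of the family was 0.31, and it was 0.96 with quantile normalization. In simulated data 2 of 50 media differences of 0.5 and 31 of 50 of 1 were called, so smaller differences would mostly be missed. PAU5 changed by −1.61 in glucose and −1.28 in galactose, a difference of −0.34 ± 0.26 (SE). The purine list had a median of 0.72 in glucose and 1.56 in galactose, and ADE12 rose by 2.26 in glucose and 2.24 in galactose. ADE17 rose by 2.54 in glucose and by 4.11 in galactose, which differed by −1.57 ± 0.57 (SE) with an adjusted p of 1.00. FAA1 rose in both, by 1.23 and 0.94. ERG5 rose by 1.68 in glucose and was at 0.28 in galactose, and the difference of 1.40 ± 0.30 (SE) did not pass (limma, adjusted p = 0.0867).

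Of the 30 genes with a higher change in glucose, 8 were among 28 sulfate assimilation and methionine genes, against 0.535% of all genes called so. In each of the 4 with the largest difference the gene fell in galactose and the change in glucose did not pass the test. MET14, adenylylsulfate kinase, had 1.08, 1.25 and 1.12 at 6 generations in glucose, against 0.64, 0.51 and 0.66 at 3 generations. In galactose it had −1.00, −1.01 and −1.06 at 6 generations, against 0.44, 0.70 and 0.52 at 3 generations. The difference between the changes was 2.13 ± 0.17 (SE), with an adjusted p of 9.7e-15 in limma. MET3, ATP sulfurylase, differed by 2.11, STR3, cystathionine beta-lyase, by 1.73, and MET5, a sulfite reductase subunit, by 1.71.

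Genes with a lower change in glucose included genes called higher in galactose and genes called lower in glucose. HSP12, a membrane-protecting heat shock protein, was at −2.35, −2.50 and −2.39 at 6 generations in glucose, against −3.18, −2.07 and −2.92 at 3 generations, which overlapped. In galactose it was at −0.77, −0.95 and −0.87 at 6 generations, against −4.34, −4.19 and −3.85 at 3 generations. The difference was −2.96 ± 0.39 (SE), with an adjusted p of 1.5e-06 in limma. RNR3, the damage-inducible large subunit of ribonucleotide reductase, differed by −2.40, and YGP1, a secreted glycoprotein, by −1.85. In both the change in glucose was negative and did not pass, at −1.09 and −0.87, and the change in galactose was 1.31 (adjusted p = 0.00705) and 0.98 (adjusted p = 0.405). INO1 and CLB1 fell in glucose, by 1.08 and 1.24, where in galactose they were at 1.05 and 0.52 with adjusted p of 0.776 and 0.168, and their differences of −2.13 and −1.75 passed.

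**Figure D5:**
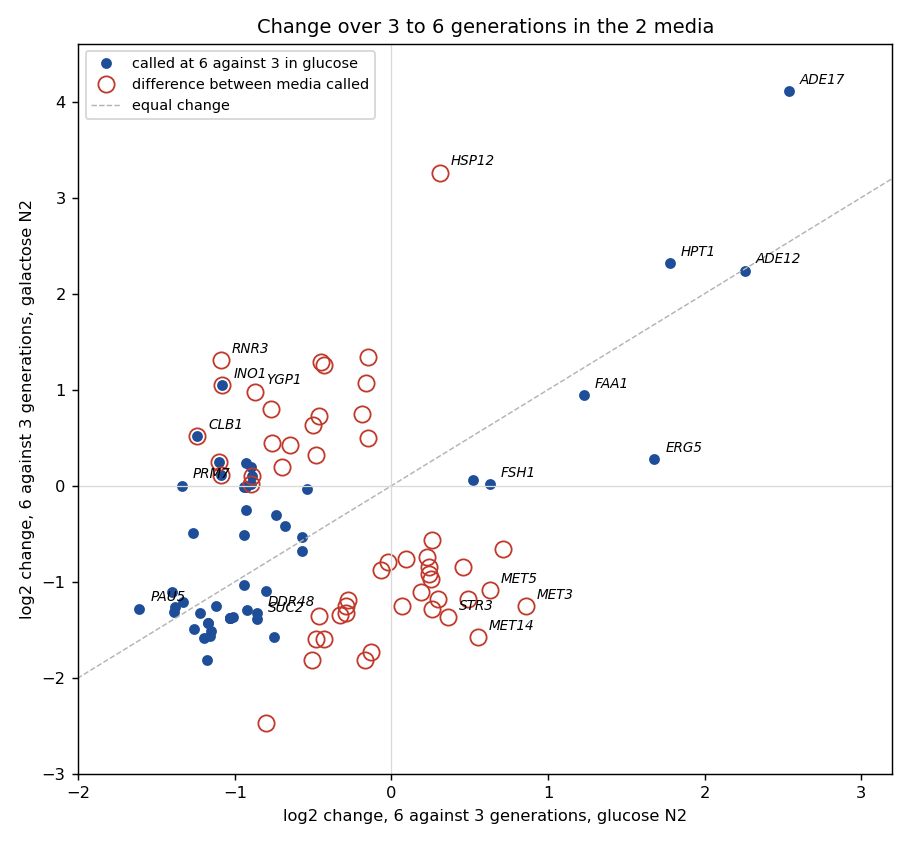
Log2 change between 6 and 3 generations under nitrogen in glucose (horizontal axis) and galactose (vertical axis) for genes called at 6 against 3 generations in glucose (filled) and genes whose change differed between the media (red rings), with selected genes named and a dashed line of equal change. The PAU genes that were called lie at lower left, ADE17, ADE12, HPT1 and FAA1 at upper right, and HSP12 far above the line at 0.31 and 3.26.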

How the data were processed

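Spot intensities were quantified with GenePix Pro and normalized in SAS by the authors, and the deposited log2 ratios of sample (Cy3) over reference (Cy5) were used as given, at 1 value per ORF and array. The base and direction are not stated. Base 2 was inferred on the premise, from the glucose arrays' descriptions, that the reference is a pool of the sampled time points, so that linear ratios should average near 1 over time: for 148 strongly changing genes the median of that average was 0.997 in base 2, 1.21 in base e and 5.89 in base 10. The direction follows genes of known oxygen response. The reference label of the glucose arrays names galactose, and the methods, which describe the antimycin A series, name a pool of an anaerobic and a re-aerated culture. The reference cancels in differences within a series.

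Groups came from the labels. All 41 arrays of the glucose series were fitted in limma 3.58.1 (R 4.3.3) with 1 mean per time point, and 83 arrays for the comparison of media. Genes needed 2 values per group, and a Holm-adjusted p of 0.01 or less was called. To see whether replicate numbers pair the arrays, deviations from the mean of each time point were correlated across genes. In these deviations, same-numbered arrays correlated at 0.206 to 0.388 for 4 against 3 generations, 0.121 to 0.241 for 5 and 0.00100 to 0.209 for 6. Between 6 and 4 generations they correlated at 0.122 to 0.332, and between 6 and 5 at 0.126 to 0.468. By the minimum of 0.1 in every pair the numbers pair the arrays of these comparisons except 6 against 3 generations. The main fits did not use this pairing, and counts with the replicate number as a block are given below. The named genes were those with the largest called changes per direction and comparison, called members of the lists and genes that check the labels, and others were named after their values were seen. The members and 45 lists were chosen with earlier results of these data known. The fits were tested on simulated data. Alternatives were other adjustments, scalings, filters, array sets, weights and a replicate block. Promoter motifs were not analysed here.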

Additional observations from a re-analysis of the deposited data

Results flagged for a closer look

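The results here were picked out because the change between 6 and 3 generations differed between glucose and galactose by a test of the difference itself, which 52 of 5609 genes passed in limma with Holm adjustment. The difference is the log2 change in glucose minus that in galactose. It was positive for the sulfate assimilation and methionine genes MET14 (2.13), MET3 (2.11), STR3 (1.73) and MET5 (1.71), whose changes in galactose were −1.58, −1.25, −1.37 and −1.09.

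It was negative for HSP12 (−2.96), RNR3 (−2.40), INO1 (−2.13), YGP1 (−1.85), CLB1 (−1.75), STF2 (−1.20), OYE3 (−0.99) and GAL3 (−0.92). The changes of CLB1, OYE3 and GAL3 in galactose were 0.52, 0.10 and 0.02, and that of HSP12 was 3.26.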

How the results depend on the processing

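Counts of called genes are given in the order 4, 5 and 6 against 3 generations, slope, and difference between media, where the reported counts were 1, 17, 51, 69 and 52. Benjamini-Hochberg adjustment gave 1, 88, 159, 213 and 171. Fits of only the compared arrays gave 0, 14, 30, 41 and 36, quantile normalization 0, 5, 18, 25 and 73, a 2-fold minimum 0, 7, 30, 32 and 38, and array weights 3, 20, 85, 101 and 121. The cause of these shifts was not tested. Leaving out 1 replicate number everywhere gave 0 to 3, 2 to 8, 13 to 29, 19 to 40 and 13 to 31. Median subtraction, genes with complete values and no moderation kept each count within 1.5 times. Without moderation, however, the 1 gene called at 4 generations was not INO1, and it rose.

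With the replicate number as a block the counts were 0, 17, 49, 68 and 60, and the only count it moved by more than 1.5 times was that at 4 generations. It ended the calls of INO1 at 4 generations (adjusted p of 0.0109) and ADE17 at 6 generations (adjusted p of 0.0108).

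With the mean of 2 and 3 generations in place of 3, 234, 321 and 315 genes were called at 4, 5 and 6 generations and 323 differed between the media. PRM7 then had a change of 0.33 with the sign turned (adjusted p of 1.00). Chosen after seeing the data, leaving out 5 generations replicate 1 gave 9 genes at 5 generations and 63 slopes, and counting identical ORFs once gave 1, 17, 47, 61 and 52. Of 576 values of named genes over the alternatives, 458 kept direction and side of the threshold, 112 no longer passed, 5 newly passed and 1 turned. The 458 include values with no call to lose, and Benjamini-Hochberg adjustment cannot lose a Holm call. This total therefore overstates how stable the calls are. With quantile normalization 27 of the 48 named values kept direction and side. Of the 48 named values 38 were calls, and leaving out replicate 1, 2 or 3 ended 15, 27 and 23 of them. With 3 arrays per time point and ratios only, small changes and absolute levels cannot be read.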
